A study of Mus musculus with 6 samples.

Results

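The 32 genes described here encode proteins of the presynaptic vesicle release machinery. They were chosen by name and fall into calcium sensors (Syt1, Syt2, Syt7), SNARE proteins (Snap25, Stx1a, Vamp1, Vamp2), complexins (Cplx1, Cplx2), priming factors (Unc13a, Unc13b, Unc13c), active zone scaffolds (Rims1, Rims2, Rims3, Bsn, Pclo, Erc1, Erc2, Ppfia2, Ppfia3), the Rab3 group (Rab3a, Rab3b, Rab3c and the effector Rph3a), synapsins (Syn2, Syn3), vesicle membrane proteins (Sv2a, Sv2b, Syngr1) and endocytosis proteins (Dnm1, Amph). All 32 were found among 22367 protein-coding genes of the GENCODE annotation of the mouse genome (NCBIM37, mm9). The gene body ran from the first annotated start to the last annotated end of each gene, and the promoter was the 2 kb before the first start. Gene bodies ranged from 3.90 kb (Vamp2) to 856 kb (Erc2).

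Acetylation of lysine 5 of histone H4 (H4K5ac) was mapped by ChIP-seq in the hippocampus of C57/BL6 mice, whose age the labels give as 6 months. Fear-conditioned mice (FC) received a foot shock in a conditioning chamber on each of 2 days and were tested in that context on day 3, and the tissue was taken within 1 h of the test. Context-only control mice (CON) went through the same handling and exposures with no shock. Both groups were of the same strain and carried no transgene according to the labels, so by the labels and methods FC and CON differed in the shock. Each group gave 1 H4K5ac library, 1 library from a mock precipitation with IgG and 1 library of input chromatin. The study's methods describe several hippocampal samples per group, which these libraries do not tell apart.

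With 1 library per group and antibody, no spread between animals could be measured and no test was run. Ratios are given on the log2 scale with exact (Clopper-Pearson) 95% intervals, which cover the counting error of the reads only. FC against CON compares libraries, not conditions. Read density is given in the usual unit RPKM, in which reads are divided by the length of the region in kb and scaled to all reads of the library. The hippocampus is a mixed tissue, and in bulk chromatin fewer cells that carry the mark and less mark per cell cannot be told apart.

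The H4K5ac libraries held 31605738 (FC) and 35962226 (CON) reads, the inputs 45673239 and 35493806, and the IgG libraries 14549689 and 16491741. Over the gene bodies, 10 neuronal marker genes (Snap25 among them) had median log2 ratios of H4K5ac over IgG of 0.93 and 0.70 in FC and CON, 12 genes of other organs had 0.04 and -0.23, and the olfactory receptor genes that were tested had -2.07 and -2.21. Astrocyte markers stood at 0.71 and 0.70, oligodendrocyte markers at 0.95 and 0.71, and microglia and vessel markers at 0.88 and 0.63. The markers of each brain cell type thus had a higher median than those of other organs in both groups.

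At a nerve terminal, synaptic vesicles dock at the active zone, a protein scaffold opposite the postsynaptic membrane, and are primed for fusion. SNARE proteins on the vesicle and on the plasma membrane zip together to drive fusion, and synaptotagmins sense the calcium that triggers it. Acetylated H4K5 is a mark of open chromatin found at promoters and within the transcribed part of active genes.

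Over their gene bodies, the members carried more H4K5ac than IgG or input in most cases. Density of H4K5ac over the 32 gene bodies ran from 0.379 to 0.940 RPKM in FC (median 0.660) and from 0.360 to 0.914 in CON (median 0.668). IgG ran from 0.155 to 0.432 in FC and from 0.303 to 0.474 in CON. Input was less even in FC, at 0.254 to 0.734, than in CON, at 0.310 to 0.469. The interval of the ratio over IgG lay wholly above 0 for 28 of 31 members in FC, where it did for 65.3% of all protein-coding genes, and for 30 of 32 in CON, against 63.1%. Over input it did so for 25 of 32 in FC, against 46.0%, and 31 of 32 in CON, against 59.5%. Longer genes hold more reads and have narrower intervals, so these shares are not on an equal footing. Rab3a had 9 IgG reads in FC, under the minimum of 10, and was left out of the FC counts over IgG.

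A gene was called when H4K5ac was at least 2-fold over IgG, or at least 1.5-fold over input. Over IgG, 16 of 31 members were called in FC, where 31.1% of all protein-coding genes were called, and 10 of 32 in CON, where 23.2% were. The 9 members called in both groups were Bsn, Dnm1, Stx1a, Sv2a, Syn2, Syn3, Syngr1, Vamp1 and Vamp2. Over input, 8 of 32 members were called in FC against 22.2% of all genes, and 19 of 32 in CON against 41.1%. Amph, Dnm1, Erc1, Syn2 and Syt1 were called over input in both. For all genes, the share called in both groups was not counted. The members' share was thus near the background in FC over input, and above it in FC over IgG and CON over input at these limits. In CON over IgG the gap was smaller, at 31.25% against 23.2%. With 1 read kept per position and strand, however, the calls over IgG were 10 of 31 in FC, against 26.6% of all genes, and 7 of 32 in CON, against 19.8%, both near the background. With a lower limit on the fold over input in FC, 18 of 32 were called, against 40.9%. Across the gene bodies of all protein-coding genes, the median log2 of FC over CON was 0.32 for input and 0.04 for H4K5ac. This difference in input enters the FC ratios over input. The median log2 ratio of the members was 1.01 (FC) and 0.74 (CON) over IgG, beside 0.66 and 0.59 for all protein-coding genes, and 0.34 and 0.66 over input, beside 0.18 and 0.46.

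**Figure D1:**
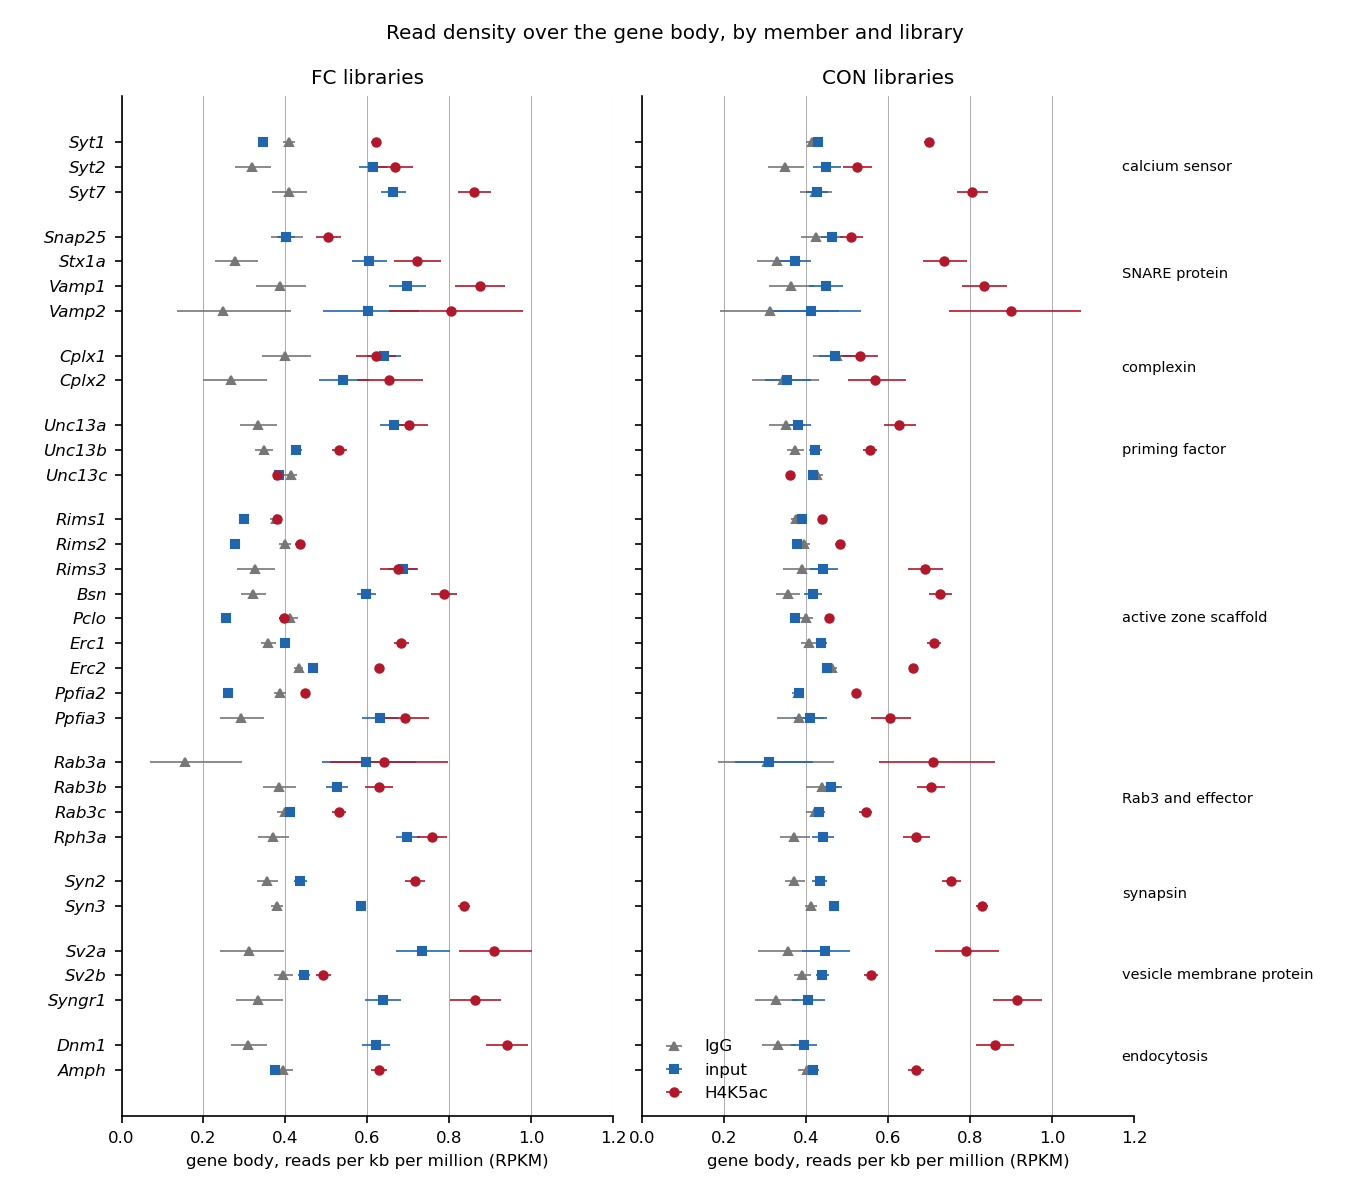
Read density over the gene body of each of the 32 members (RPKM, x axis) in the FC libraries (left) and the CON libraries (right), grouped by role. Circles are H4K5ac, squares input and triangles IgG, each 1 library, with exact 95% counting intervals as bars; H4K5ac lies to the right of both controls for most members, Unc13c being the clearest exception, and the FC input is more spread than the CON input.

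Among the calcium sensors, Syt1 (ENSMUSG00000035864, chr10:107934706-108448038, minus strand), the main trigger of fast synchronous release in forebrain neurons, held 0.621 RPKM of H4K5ac, 0.409 of IgG and 0.345 of input in FC. In CON, Syt1 held 0.699, 0.414 and 0.428 in the same order. H4K5ac was the highest of the 3 libraries in each group, with log2 ratios over IgG of 0.60 (0.54 to 0.66) in FC and 0.76 (0.70 to 0.81) in CON, and over input of 0.85 (0.81 to 0.89) and 0.71 (0.67 to 0.75). Syt7, a slower and more sensitive calcium sensor, reached 0.861 RPKM of H4K5ac in FC and 0.805 in CON, with ratios over IgG of 1.08 and 0.93.

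Syt2 (chr1:136605877-136649726, plus strand), the fast sensor of hindbrain synapses and of some inhibitory neurons, held 0.668 RPKM of H4K5ac, 0.318 of IgG and 0.613 of input in FC, and 0.524, 0.348 and 0.449 in CON. Its ratio over input was the lowest of the sensors in both groups, at 0.12 in FC, with 0 just inside its interval, and 0.22 (0.08 to 0.37) in CON.

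Among the SNARE proteins, Vamp2 (ENSMUSG00000020894, chr11:68901992-68905886, plus strand), the vesicle SNARE of most central synapses, held 0.804 RPKM of H4K5ac against 0.247 of IgG and 0.601 of input in FC. In CON it held 0.900 against 0.311 and 0.412. The mark stood over both controls in each group, but the gene is short, so its intervals were wide: 1.70 (0.89 to 2.63) and 1.53 (0.84 to 2.29) over IgG. Snap25 (ENSMUSG00000027273, chr2:136539189-136608164, plus strand), the plasma membrane SNARE, had a lower density. It held 0.505 RPKM of H4K5ac, 0.403 of IgG and 0.402 of input in FC, and 0.509, 0.423 and 0.462 in CON. Its ratios were small in both groups, 0.33 (0.16 to 0.50) and 0.27 (0.11 to 0.42) over IgG, and 0.33 and 0.14 over input. Stx1a, the syntaxin that pairs with Snap25, reached 1.38 and 1.16 over IgG, and Vamp1, the vesicle SNARE prominent in the brainstem and spinal cord, 1.18 and 1.2. Of the Vamp1 body, 27.3% is shared with Tapbpl and 15.1% with Cd27, so its reads cannot be assigned to Vamp1 alone.

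The complexins clamp and promote SNARE-driven fusion. Cplx2 held 0.652 RPKM of H4K5ac, 0.268 of IgG and 0.540 of input in FC, and 0.569, 0.343 and 0.352 in CON. Cplx1 held 0.620, 0.400 and 0.641 in FC, and 0.531, 0.474 and 0.469 in CON. H4K5ac over Cplx1 was thus no higher than input in FC, at a log2 ratio of -0.05 (-0.20 to 0.10), and the interval over IgG in CON included 0, at 0.16 (-0.05 to 0.38).

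The 3 Unc13 paralogs, which prime docked vesicles for fusion, differed widely. Unc13a, the main form of excitatory forebrain synapses, held 0.702 RPKM of H4K5ac, 0.333 of IgG and 0.665 of input in FC, and 0.627, 0.351 and 0.380 in CON. Its ratio over IgG was 1.08 in FC and 0.84 in CON, while over input it stood at 0.08 (-0.04 to 0.20) in FC and 0.72 (0.58 to 0.87) in CON. Unc13b stood in between, at 0.62 and 0.57 over IgG. Unc13c (ENSMUSG00000062151, chr9:73328677-73781374, minus strand), best known from the cerebellum, held 0.379 RPKM of H4K5ac, 0.413 of IgG and 0.384 of input in FC, and 0.360, 0.425 and 0.416 in CON. Unc13c was the only member whose interval over IgG lay below 0 in both groups, at -0.12 (-0.19 to -0.05) and -0.24 (-0.30 to -0.18).

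The 9 active zone scaffolds ran from -0.06 to 1.30 over IgG in FC and from 0.19 to 1.04 in CON. Bsn (Bassoon, a very large scaffold protein) held 0.787 RPKM of H4K5ac, 0.320 of IgG and 0.597 of input in FC, and 0.727, 0.354 and 0.417 in CON, with ratios over IgG of 1.30 and 1.04. A long non-coding RNA gene, F630040L22Rik, covers 14.2% of the Bsn body. Pclo (Piccolo, the relative of Bassoon) held 0.396, 0.412 and 0.254 in FC, and 0.457, 0.399 and 0.373 in CON. H4K5ac over Pclo did not exceed IgG in FC, with a ratio of -0.06 (-0.14 to 0.02), but it exceeded input by 0.64 (0.58 to 0.70). Rims1, which tethers vesicles and calcium channels at the active zone, held 0.380, 0.376 and 0.299 in FC, and 0.439, 0.374 and 0.389 in CON. Its mark was level with IgG in FC, at 0.01 (-0.04 to 0.07), and 0.23 (0.17 to 0.28) above it in CON.

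Ppfia2 (liprin-alpha-2, which organizes the active zone) held 0.448 RPKM of H4K5ac, 0.386 of IgG and 0.261 of input in FC, and 0.522, 0.379 and 0.382 in CON. Pclo, Ppfia2, Rims2 and Rims1 had the 4 lowest inputs of all members in FC, and these enter their ratios over input there. Erc1 and Erc2, the ELKS scaffold proteins, stood at 0.93 and 0.54 over IgG in FC and at 0.81 and 0.51 in CON. The remaining scaffolds, Rims2, Rims3 and Ppfia3, had ratios over IgG of 0.29, 0.83 and 0.66 in CON, and Rims2 and Rims3 of 0.12 and 1.05 in FC, where Ppfia3 was past 2-fold.

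Rab3a (ENSMUSG00000031840, chr8:73278578-73282576, plus strand), the main vesicle GTPase of the Rab3 group, held 0.641 RPKM of H4K5ac, 0.155 of IgG and 0.597 of input in FC, and 0.709, 0.303 and 0.310 in CON. Its ratio over IgG, 2.05 (1.06 to 3.23) in FC and 1.23 (0.52 to 2.00) in CON, had the highest mean of all members, but it rests on 9 and 20 IgG reads. Over input Rab3a stood at 0.10 (-0.33 to 0.53) in FC and 1.19 (0.67 to 1.74) in CON. Rab3b, Rab3c and Rph3a, an effector that binds Rab3 and calcium, had ratios over IgG of 0.71, 0.41 and 1.03 in FC, and of 0.69, 0.37 and 0.85 in CON.

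Syn2, a synapsin that ties vesicles into the reserve pool, held 0.717 RPKM of H4K5ac, 0.356 of IgG and 0.436 of input in FC. In CON it held 0.753, 0.371 and 0.433. Syn2 was above each control by a like amount in both groups, at 1.01 and 1.02 over IgG and 0.72 and 0.80 over input. Gm17482, annotated as protein-coding, covers 21.6% of the Syn2 body. Syn3 had 1.14 and 1.01 over IgG, and Timp3, which lies inside it, covers 11.1% of its body.

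Sv2a, a transporter-like vesicle glycoprotein, held 0.909 RPKM of H4K5ac, 0.311 of IgG and 0.734 of input in FC, and 0.789, 0.354 and 0.445 in CON. Its relative Sv2b was lower in H4K5ac, at 0.493 and 0.558. Syngr1 (synaptogyrin 1, a tetraspan vesicle protein) held 0.863, 0.334 and 0.637 in FC, and 0.914, 0.325 and 0.403 in CON, the highest density of H4K5ac among the members in CON. Dnm1 (ENSMUSG00000026825, chr2:32163991-32208849, minus strand), the GTPase that pinches off endocytic vesicles, held 0.940, 0.309 and 0.621 in FC, and 0.860, 0.331 and 0.393 in CON. Dnm1 had the highest density in FC, with ratios over IgG of 1.60 (1.39 to 1.82) and 1.38 (1.18 to 1.58). Amph, the amphiphysin that recruits dynamin, stood at 0.67 and 0.73 over IgG and at 0.75 and 0.68 over input.

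Among the 200 protein-coding genes nearest to it in length, a member stood above the 50th percentile over IgG for 22 of 31 members in FC and 24 of 32 in CON, with median percentiles of 74.5 and 67. Over input, 18 and 23 of 32 did, with medians of 53 and 67. The members' gene bodies differed in base composition as well as in length. The 18 members under 100 kb had a GC content of 40.4% to 56.4% and a median ratio over IgG of 0.89 in CON, and of 1.18 in FC over the 17 with enough IgG reads. The 14 members over 100 kb had 36.4% to 45.4% GC and medians of 0.47 and 0.51. Across members, Spearman's rho between GC content and the ratio over IgG was 0.88 in FC (n = 31) and 0.72 in CON (n = 32), beside 0.59 and 0.50 across all protein-coding genes. These are correlations across genes that share the same libraries, depth and base composition, and genes are not replicates.

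When the length neighbours were limited to genes within 2 percentage points of a member's GC content, 21 of 31 and 21 of 32 members stood above the 50th percentile over IgG, with medians of 58.5 and 57.25. Over input, 19 and 20 of 32 did, with medians of 54.5 and 58.25. The 2 length classes moved in opposite directions over IgG. For the 14 members over 100 kb the median percentile was 51.25 in FC and 57.25 in CON among genes of like length, and 64.75 and 66.25 when GC content was limited too. For the shorter members it was 80 and 72.25 by length alone, and 50.5 and 45.25 with the limit on GC content. With these neighbours, 17 of 31 members stood above the 50th percentile in all 4 ratios: Syt1, Vamp1, Vamp2, Syn2, Syn3, Rims1, Rims2, Pclo, Erc1, Erc2, Rab3b, Rab3c, Sv2a, Syngr1, Ppfia2, Dnm1 and Amph. The 7 below it in all 4 were Syt2, Snap25, Rims3, Unc13a, Unc13c, Cplx1 and Rph3a. The ratios of a group share its H4K5ac library, so the 4 do not vary independently. How many of all genes stand above or below in all 4 was not counted. Syt1 stood at percentiles 87 and 94 over IgG and 90.5 and 94.5 over input in FC and CON. Erc1 stood at 94.5 and 87.5, and 83 and 84. Unc13a stood at 21.5 and 19.5, and 22 and 28.5, although its ratio over IgG was past 2-fold in FC.

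**Figure D2:**
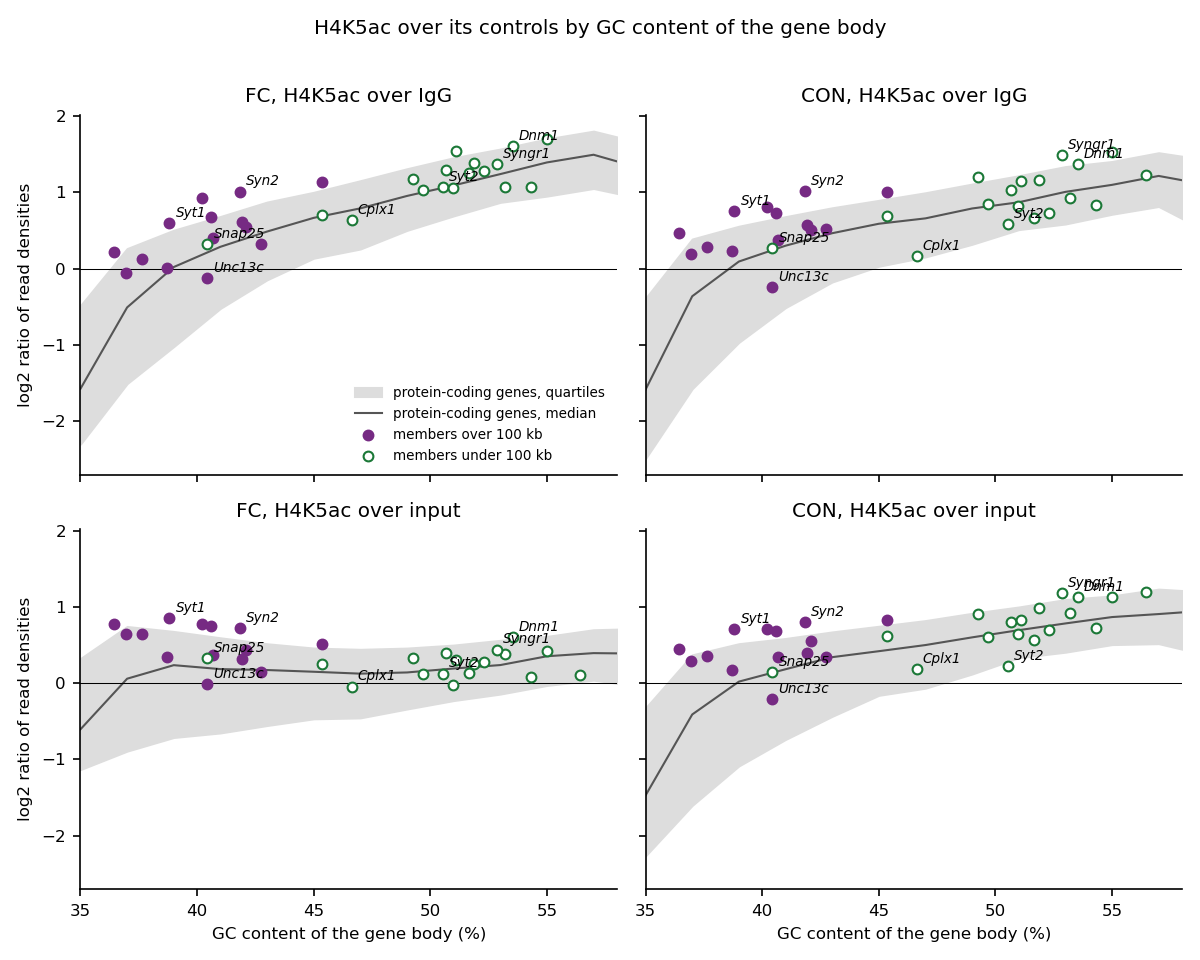
Log2 ratio of H4K5ac over IgG (top) and over input (bottom) against the GC content of the gene body (percent) in FC (left) and CON (right). Filled points are members over 100 kb, open points members under 100 kb, the line the median and the band the quartiles of protein-coding genes in steps of 2 percentage points; the ratio over IgG climbs with GC content for members and for all genes, and Syt1, Syn2, Syn3, Erc1 and Dnm1 lie above the band in all 4 panels, while Syt2 in CON over input is the only member under it.

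In the 2 kb before the first annotated start, counts were small, with 8 to 109 H4K5ac reads per member in FC and 22 to 118 in CON, and 2 to 19 and 4 to 24 IgG reads. Over IgG, 8 of the 19 members with enough IgG reads were called in FC, against 30.9% of all genes, and 9 of 24 in CON, against 32.2%. These counts depended on the filter: at a mapping score of at least 20 they were 5 of 17 and 4 of 19, against 26.9% and 29.3%, and with no read minimum 19 and 15 of 32, against 48.1% and 41.6%. Over a promoter of 5 kb, 16 of 32 were called in FC, against 35.3%. Over input, 13 of 32 were called in FC, against 42.1%, and 17 of 32 in CON, against 52.6%. The shares over input were near those of all genes. Among genes of like length, the promoters had a median percentile over input of 43.1 in FC and 48.1 in CON. With the GC content of the gene body limited too, this median was 38.1 and 45.25. The GC content of the promoter itself was not matched. Over IgG, the members with enough IgG reads had medians of 58 and 50.75 by length, and 54 and 53.6 with that limit. The median promoter thus ranked below the middle of these genes over input, and above it over IgG. Dnm1, Erc2, Pclo, Rab3a, Sv2a, Syn2, Syn3, Syngr1, Unc13a, Vamp1 and Vamp2 were called over input in both groups, for which no share of all genes was counted. The median ratio over input was 0.42 in FC and 0.70 in CON, beside 0.40 and 0.65 for all genes.

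By the mean of FC and CON, the 3 highest promoters over input were those of Rab3a, Vamp2 and Syngr1. In FC alone the Pclo promoter was the highest, at 1.65 (0.91 to 2.43), and it stood at 0.79 (0.03 to 1.58) in CON. The Rab3a promoter held 1.72 RPKM of H4K5ac, 0.447 of IgG and 0.712 of input in FC, and 1.64, 0.394 and 0.423 in CON, the highest density of any member's promoter in both groups. Its ratio over input stood at 1.28 (0.82 to 1.74) in FC and 1.96 (1.37 to 2.59) in CON. The Vamp2 promoter held 1.27, 0.241 and 0.602 in FC, and 1.40, 0.243 and 0.380 in CON, with ratios over input of 1.07 (0.56 to 1.59) and 1.88 (1.26 to 2.55). The Syngr1 promoter held 1.01, 0.378 and 0.493 in FC, and 1.29, 0.394 and 0.409 in CON. Each of these stood over both of its controls in both groups.

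By the same mean, the 3 lowest promoters were those of Ppfia2, Rims1 and Rab3c. The Ppfia2 promoter held 0.127 RPKM of H4K5ac, 0.447 of IgG and 0.339 of input in FC, and 0.334, 0.273 and 0.592 in CON. Its ratio over input stood at -1.42 (-2.76 to -0.27) in FC, on 8 H4K5ac reads, and -0.83 (-1.61 to -0.07) in CON. The Rims1 promoter held 0.269, 0.481 and 0.350 in FC, and 0.403, 0.364 and 0.704 in CON, and the Rab3c promoter held 0.427, 0.447 and 0.504 in FC, and 0.361, 0.394 and 0.563 in CON. H4K5ac was below input at both promoters in both groups, although the interval excluded 0 only for Rims1 in CON, at -0.80 (-1.52 to -0.12).

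The 250 bases before the first start are shown for the highest promoters, Rab3a and Vamp2, and for the lowest, Ppfia2, so that their composition can be compared (NCBIM37, 5′ to 3′ on the strand of the gene, GC boxes in capitals, written GGGCGG or on the other strand CCGCCC). They lie at chr8:73278328-73278577 (+), chr11:68901742-68901991 (+) and chr10:105902071-105902320 (+).
Rab3a: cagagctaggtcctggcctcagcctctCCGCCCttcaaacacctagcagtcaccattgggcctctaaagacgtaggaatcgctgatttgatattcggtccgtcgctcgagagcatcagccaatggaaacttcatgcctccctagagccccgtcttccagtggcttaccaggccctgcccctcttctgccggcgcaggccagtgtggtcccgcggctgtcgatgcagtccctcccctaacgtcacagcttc
Vamp2: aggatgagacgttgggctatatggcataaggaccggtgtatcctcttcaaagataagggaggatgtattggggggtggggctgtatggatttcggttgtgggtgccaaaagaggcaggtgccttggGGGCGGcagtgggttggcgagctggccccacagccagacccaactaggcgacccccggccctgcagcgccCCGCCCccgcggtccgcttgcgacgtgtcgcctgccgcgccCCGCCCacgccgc
Ppfia2: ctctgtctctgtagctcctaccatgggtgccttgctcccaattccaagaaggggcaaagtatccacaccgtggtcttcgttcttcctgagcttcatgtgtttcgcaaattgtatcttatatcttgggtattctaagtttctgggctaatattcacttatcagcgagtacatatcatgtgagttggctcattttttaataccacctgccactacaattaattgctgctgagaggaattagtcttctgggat
The Rab3a stretch was 59.6% GC with an observed over expected CpG ratio of 0.66, the Vamp2 stretch 66% with 0.74, and the Ppfia2 stretch 42.8% with 0.35. Both high promoters held a GC box and the Ppfia2 stretch held none. The Dnm1 stretch held none either, although its promoter was called over input in both groups. Whether GC boxes go with the mark across members was not tested.

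Over all members, the 250 bases had a median GC content of 60.2% and a median CpG ratio of 0.67, beside 54.0% and 0.50 for all protein-coding genes. The GC box was found on either strand in 22 of 32 members (68.8%, beside 39.6% of all genes). TATAAA was found in 3 members (9.38%, beside 12.3%), and the E-box letters CACGTG in Unc13b alone (3.13%, beside 6.52%). The cyclic AMP response element letters TGACGTCA were found in Snap25 alone (3.13%, beside 1.91%). These matches are letters in a window and do not show binding.

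Snap25 is shown because its 250 bases (chr2:136538939-136539188, +) held more kinds of these letters than any other member's, with 2 overlapping TATA boxes written TATAAA or TTTATA, 3 GC boxes and the cyclic AMP response element in capitals.
Snap25: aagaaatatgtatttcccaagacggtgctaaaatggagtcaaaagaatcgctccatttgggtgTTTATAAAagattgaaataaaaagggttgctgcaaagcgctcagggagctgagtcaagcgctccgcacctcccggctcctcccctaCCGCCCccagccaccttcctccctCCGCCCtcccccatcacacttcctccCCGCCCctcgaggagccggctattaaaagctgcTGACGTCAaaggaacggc
The RE1 element recruits REST, which represses neuronal genes outside neurons. Its letters CAGCACC and GGACAG, with NN between them and at most 1 mismatch, were searched on both strands within 2 kb of each first start and were found in 2 members (6.25%, beside 2.33% of all genes). Snap25 held 2 exact matches in an intron, 837 and 887 bases after the start.
Snap25 RE1 letters at chr2:136540026-136540040: CAGCACCCTGGACAG
Snap25 RE1 letters at chr2:136540076-136540090: CAGCACCGCGGACAG
In the 2 kb around these matches (shown whole in capitals), H4K5ac over input stood at 0.69 (-0.11 to 1.5) in FC and -0.23 (-1.07 to 0.60) in CON, neither interval excluding 0. The Snap25 promoter itself stood at 0.81 (0.19 to 1.44) in FC and 0.42 (-0.25 to 1.10) in CON over input. Rph3a held the other match, with 1 mismatch, at -112 from its start.

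Around the first start, each read position and strand was counted once, since repeated reads pile up at a few starts of other genes. H4K5ac of the members stood at 0.818 RPKM in FC and 0.697 in CON over the 500 bases before the start. Over the 500 bases after the start it was 0.492 and 0.365. Input and IgG were lowest there too, at 0.333 and 0.193 in FC and 0.220 and 0.0971 in CON, so the dip after the start was in all 6 libraries. In all protein-coding genes H4K5ac fell across the start as well, from 0.683 to 0.542 in FC and from 0.587 to 0.432 in CON. With all reads counted, H4K5ac in the 1 kb that begins 500 bases after the start exceeded that from 5 to 3 kb before it by 0.47 (0.33 to 0.61) in FC and 0.36 (0.22 to 0.49) in CON on the log2 scale. Divided by the same value of the input, it was 0.26 in FC and 0.44 in CON.

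**Figure D3:**
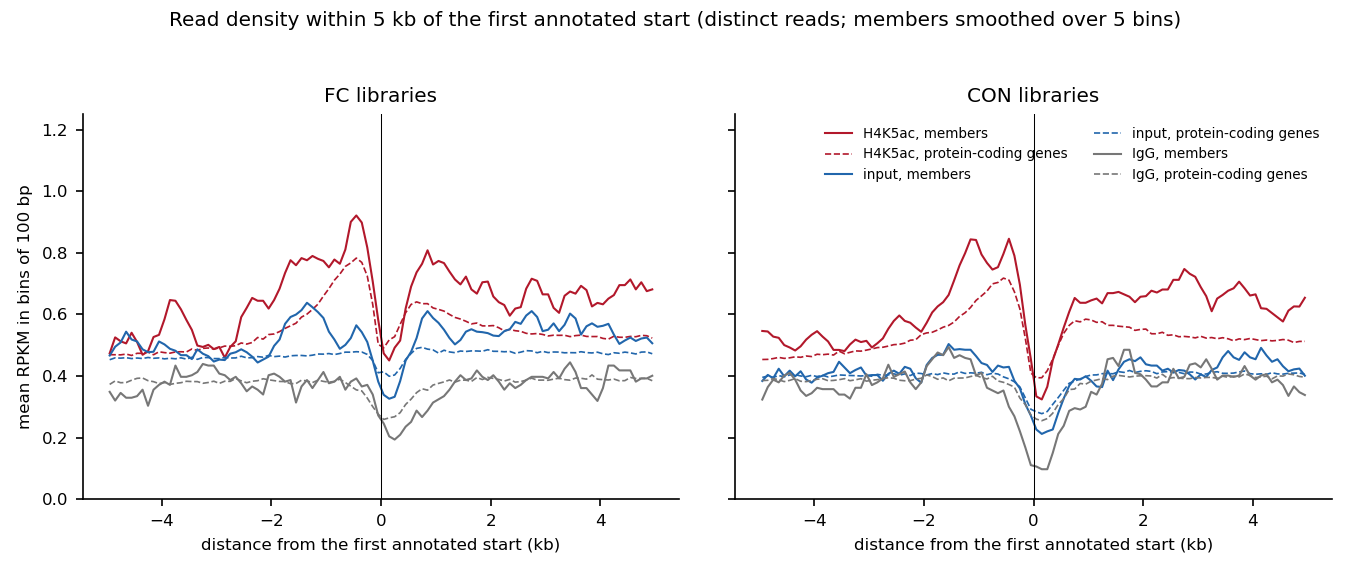
Mean read density (RPKM in bins of 100 bp, y axis) within 5 kb of the first annotated start (x axis, kb) in the FC libraries (left) and CON libraries (right), for the 32 members (solid lines, smoothed over 5 bins) and all protein-coding genes (dashed lines). H4K5ac of the members is highest shortly before the start, and H4K5ac, input and IgG all dip within 500 bases after it.

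Summed over the 30 members of at least 4 kb, H4K5ac over input in the promoter stood at 0.42 (0.31 to 0.54) in FC and 0.60 (0.48 to 0.73) in CON, and at 0.41 and 0.66 in the first 2 kb, 0.46 and 0.47 over the whole body, 0.24 and 0.71 in the last 2 kb and 0.38 and 0.56 in the 2 kb after the end. In all protein-coding genes of that length the promoter stood at 0.54 and 0.75 and the whole body at 0.29 and 0.41. Over IgG, the members stood at 0.95 and 0.80 in the promoter, 1.06 and 0.89 in the first 2 kb, 0.92 and 0.87 in the last 2 kb and 0.46 and 0.49 over the whole body. Over input no part was above the others in both groups. Over IgG the whole body was the lowest part in both. It was the lowest in all protein-coding genes of that length too, at 0.47 and 0.45. The first 2 kb had the members' highest value over IgG, but its intervals overlapped those of the promoter and the last 2 kb. In all genes the first 2 kb stood at 0.91 and 0.74 over IgG, below the promoter at 0.98 and 0.84. The sums over whole bodies weigh long genes most. The limit of 4 kb left out Vamp2 and Rab3a, whose promoters were among the highest over input.

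The long members allowed the mark to be followed along the gene, in windows of 50 kb with each position and strand counted once. Along Syt1, H4K5ac over input stood at 0.61 (0.44 to 0.79) in FC and 0.34 (0.19 to 0.50) in CON over the first 50 kb. Between 400 and 450 kb it stood at 0.95 (0.83 to 1.08) and 1.02 (0.90 to 1.15), the highest window in CON. In FC the highest window was that from 250 to 300 kb, at 1.12 (0.96 to 1.27), the lowest that from 100 to 150 kb, at 0.49, and the ratio of the last window was 0.71, against 0.90 in CON. Over IgG, the first window stood at 0.09 (-0.13 to 0.32) in FC and 0.28 (0.09 to 0.48) in CON, and the interval lay above 0 in 7 of the 10 windows in FC and in all 10 in CON, with the highest at 400 to 450 kb in both. H4K5ac density over the first window and that at 400 kb went from 0.408 to 0.889 RPKM in FC and from 0.493 to 1.02 in CON, with input going from 0.267 to 0.460 in FC and from 0.388 to 0.50 in CON, while IgG over all 10 windows lay at 0.383 to 0.462 in FC and 0.400 to 0.477 in CON. GC content was 37.3% in the first of these and 41.1% in the other, and its part in the difference was not tested.

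Along Unc13c, no window of 50 kb had an interval above 0 over input in either group. Of its 9 windows, 2 in FC and 5 in CON had an interval below 0. The other intervals included 0.

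Rims1 (ENSMUSG00000041670, chr1:22276332-22911673, minus strand) carried different densities on the 2 sides of an annotated start. Its first start belongs to 1 annotated transcript, and the next lies 99.1 kb into the gene. Over the 99.1 kb between them, H4K5ac was 0.213 RPKM, IgG 0.422 and input 0.300 in FC, and 0.244, 0.390 and 0.419 in CON. From the start at 99.1 kb to the next at 308 kb, these were 0.530, 0.426 and 0.352 in FC, and 0.624, 0.436 and 0.451 in CON. H4K5ac was the lowest of the 3 libraries on the first stretch and the highest on the next, in both groups. From 308 kb to 606 kb H4K5ac was 0.319, IgG 0.362 and input 0.260 in FC, and 0.377, 0.352 and 0.345 in CON. On that stretch H4K5ac was below IgG in FC, at -0.18 (-0.28 to -0.08), and above both controls in CON. Over input, the stretches stood at -0.49 (-0.64 to -0.35) against 0.59 (0.52 to 0.66) in FC, and at -0.78 (-0.91 to -0.65) against 0.47 (0.40 to 0.54) in CON. GC content was 39.1% and 39.2%.

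In windows of 10 kb, the first 100 kb of Rims1 had a median ratio over input of -0.55 (FC) and -1.05 (CON), against 0.49 and 0.46 in the next 100 kb. The window from 90 to 100 kb, which holds the second start, was the highest of the first 10, at 0.32 and 0.29. Apart from it, all windows of the first 100 kb were below all windows of the next 100 kb in both groups.

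The 250 bases before the first Rims1 start (minus strand, chr1:22911674-22911923) are shown because the stretch that follows it was low in the mark. None of the searched motifs was found in them, so nothing is in capitals.
Rims1 start 1: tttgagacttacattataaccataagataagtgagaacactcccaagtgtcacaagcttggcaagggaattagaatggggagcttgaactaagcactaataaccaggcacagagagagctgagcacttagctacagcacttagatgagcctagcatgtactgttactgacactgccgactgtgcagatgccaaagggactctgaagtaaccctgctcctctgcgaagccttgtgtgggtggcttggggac
This sequence was 48% GC with a CpG ratio of 0.14. The 2 kb promoter value of Rims1 given above belongs to this start.

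Rims2 (chr15:39029878-39513486, plus strand) carried the mark near its second start, 193.8 kb into the gene. Within 1 kb of that start, H4K5ac was 1.05 RPKM in FC and 1.18 in CON, IgG 0.418 and 0.671 and input 0.255 and 0.411, giving 2.05 (1.29 to 2.86) and 1.52 (0.85 to 2.23) over input. Over IgG the ratio was lower, at 1.33 (0.35 to 2.47) in FC and 0.81 (0.07 to 1.62) in CON. Within 1 kb of the first start H4K5ac was 0.240 and 0.0942 RPKM, level with input at 0.07 (-1.08 to 1.18) and -0.07 (-1.97 to 1.84). The last start, 461 kb into the gene, stood at 1.19 (0.47 to 1.93) in FC and 0.71 (0.04 to 1.4) in CON over input, and the stretch after it held the most H4K5ac of the gene, 0.759 and 0.843 RPKM. Of the 20 later starts of all members, the interval over input lay above 0 in 6 in FC and 9 in CON. It lay below 0 in 1 in FC and 0 in CON. In both groups it lay above 0 in 5, those of Rims2 (both), Ppfia2, Unc13b and Dnm1. Among these 5, the interval over IgG included 0 for the last Rims2 start in CON and for Dnm1 in FC. Later starts of all protein-coding genes were not counted, so these counts have no background share. Over input, the start of Rims1 at 606 kb stood at -0.91 (-1.77 to -0.10) in FC and 0.87 (0.11 to 1.66) in CON. It held 18 H4K5ac reads in FC, and its input was 0.624 RPKM in FC and 0.378 in CON. Over IgG both of its intervals included 0, at -0.01 (-1.28 to 1.40) and 0.48 (-0.41 to 1.47). The second Rims2 start is shown (chr15:39223418-39223667, +) because the mark near it was high although the sequence had a low GC content, 36.8%, and none of the searched motifs.
Rims2 start 2: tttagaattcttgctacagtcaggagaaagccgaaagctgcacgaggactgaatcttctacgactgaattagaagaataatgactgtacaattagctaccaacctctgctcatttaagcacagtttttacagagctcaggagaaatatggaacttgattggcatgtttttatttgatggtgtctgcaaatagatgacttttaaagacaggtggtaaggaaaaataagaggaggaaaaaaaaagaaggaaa
Ppfia2 has a second start 5.08 kb after the first. Within 1 kb of it, H4K5ac over input stood at 1.31 (0.59 to 2.05) in FC and 1.27 (0.51 to 2.07) in CON, against -0.62 (-1.69 to 0.37) and -0.67 (-1.54 to 0.16) at the first. At Ppfia2 the low promoter was therefore that of the first annotated start, and the mark was present at the second.

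**Figure D4:**
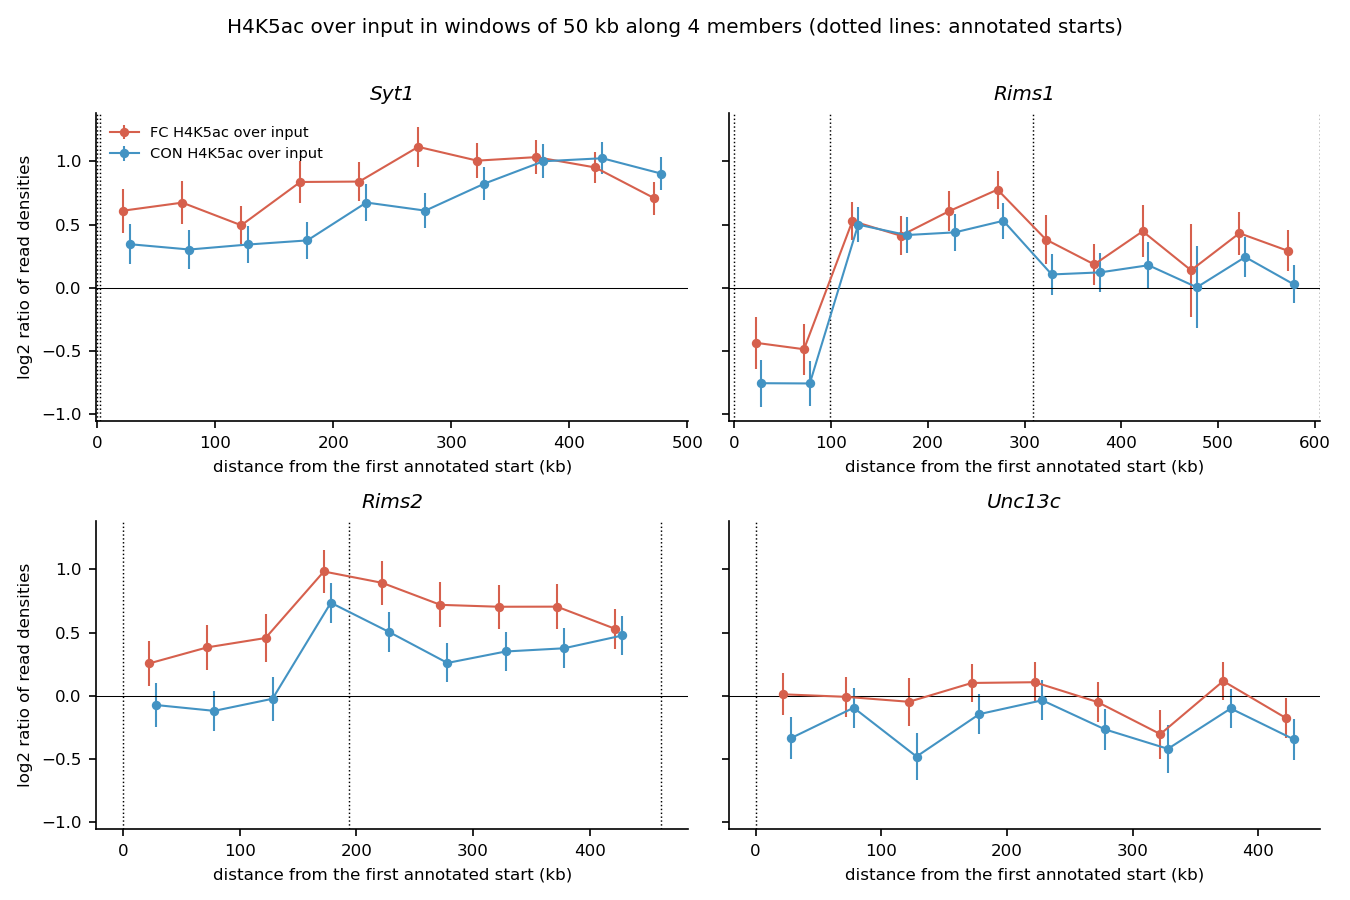
Log2 ratio of H4K5ac over input in windows of 50 kb (y axis) against the distance from the first annotated start in kb (x axis) for Syt1, Rims1, Rims2 and Unc13c, with FC and CON as separate lines, exact 95% counting intervals as bars and annotated starts as dotted lines. Rims1 is under 0 before the start near 99.1 kb and over 0 in the 4 windows after it in both groups, Rims2 is highest in the window that holds its second start, Syt1 is above 0 over input in all 10 windows, with its highest window at 250 to 300 kb in FC and 400 to 450 kb in CON, and no Unc13c window has an interval above 0.

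In tiles of 1 kb, 196 of 5744 tiles from 5 kb before the first start to the end of each member (3.41%) held at least 20 distinct H4K5ac reads and at least 2-fold over input in both FC and CON, where 5.16% of the tiles of all protein-coding genes did. The share was thus below the background. These tiles fell in 24 members, with 83.7% of them in introns, 10.7% on exons and 5.61% upstream, beside 86.2%, 11.1% and 2.66% of all 5744 tiles. Syt1 held 43 of its 488 tiles (8.81%), of which 39 lay at least 250 kb from the first start. Amph (8.70%), Erc1 (8.18%) and Syn2 (7.69%) had shares above 5.16% too. So did Vamp2 and Syngr1 (12.5% each), Sv2a (10.5%), Dnm1 (8.16%), Syn3 (6.31%), Cplx2 (6.25%), Vamp1 (6.06%) and Rab3a. The other members were below 5.16%, and the share over all members weighs long genes most. Of the called tiles, 4 of 11 in Syn2, 1 of 4 in Dnm1 and 1 of 2 in Vamp1 lay under another protein-coding gene. Syn3 held 27, of which 11 lay under Timp3. Rab3a held 3 of 8, and Unc13c none of 419. Of the 196, 18 (9.18%) lay within 2 kb of an annotated start, beside 3.45% of all tiles.

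After the median of all protein-coding genes was set to 0, 1 of 32 members, Syt2, was at least 1.2-fold higher in FC, where 10.4% of all genes were. None was at least 1.2-fold lower, where 7.05% were. Centred on genes of like GC content, Syt2 was no longer past the limit, and 0 members were higher and 2 lower. Less the difference in input, 10 members were at least 1.2-fold higher and 9 lower, where 25.5% and 21.3% of all genes were. The interval lay wholly above 0 for 3 members, against 11.2% of all genes, and wholly below it for 13, against 14.9%, and the median was -0.07. Intervals are narrowest for the long members, which make up most of the 13. Syt2 stood at 0.31 (0.18 to 0.45), with 0.13 for input and -0.07 for IgG between the same groups. Next were Cplx1 at 0.19 (0.02 to 0.35), with 0.13 and -0.19 in the controls, and Sv2a at 0.17 (-0.03 to 0.37), with 0.40 and -0.13.

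The lowest was Ppfia2 at -0.26 (-0.31 to -0.21), just inside the 1.2-fold limit. Pclo and Rims1 stood at -0.24 (-0.30 to -0.19) and -0.24 (-0.29 to -0.20). In input, these 3 genes differed between the groups by more, at -0.87, -0.87 and -0.70, while IgG differed by 0.09, 0.11 and 0.07. The FC and CON inputs differed with GC content over all genes (Spearman's rho 0.86, n = 19236) and over the members (0.93, n = 32). In H4K5ac the same correlation was 0.41 over all genes and 0.51 over the members. Against the 200 protein-coding genes nearest in GC content, Ppfia2 stood at -0.07, Pclo at -0.07 and Rims1 at -0.10, and Syt2 at 0.23. The 2 members then past 1.2-fold lower were Vamp2 at -0.32 and Rab3a at -0.30, short genes whose counting intervals before this centring included 0. The part of base composition in the members' differences was not tested.

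**Figure D5:**
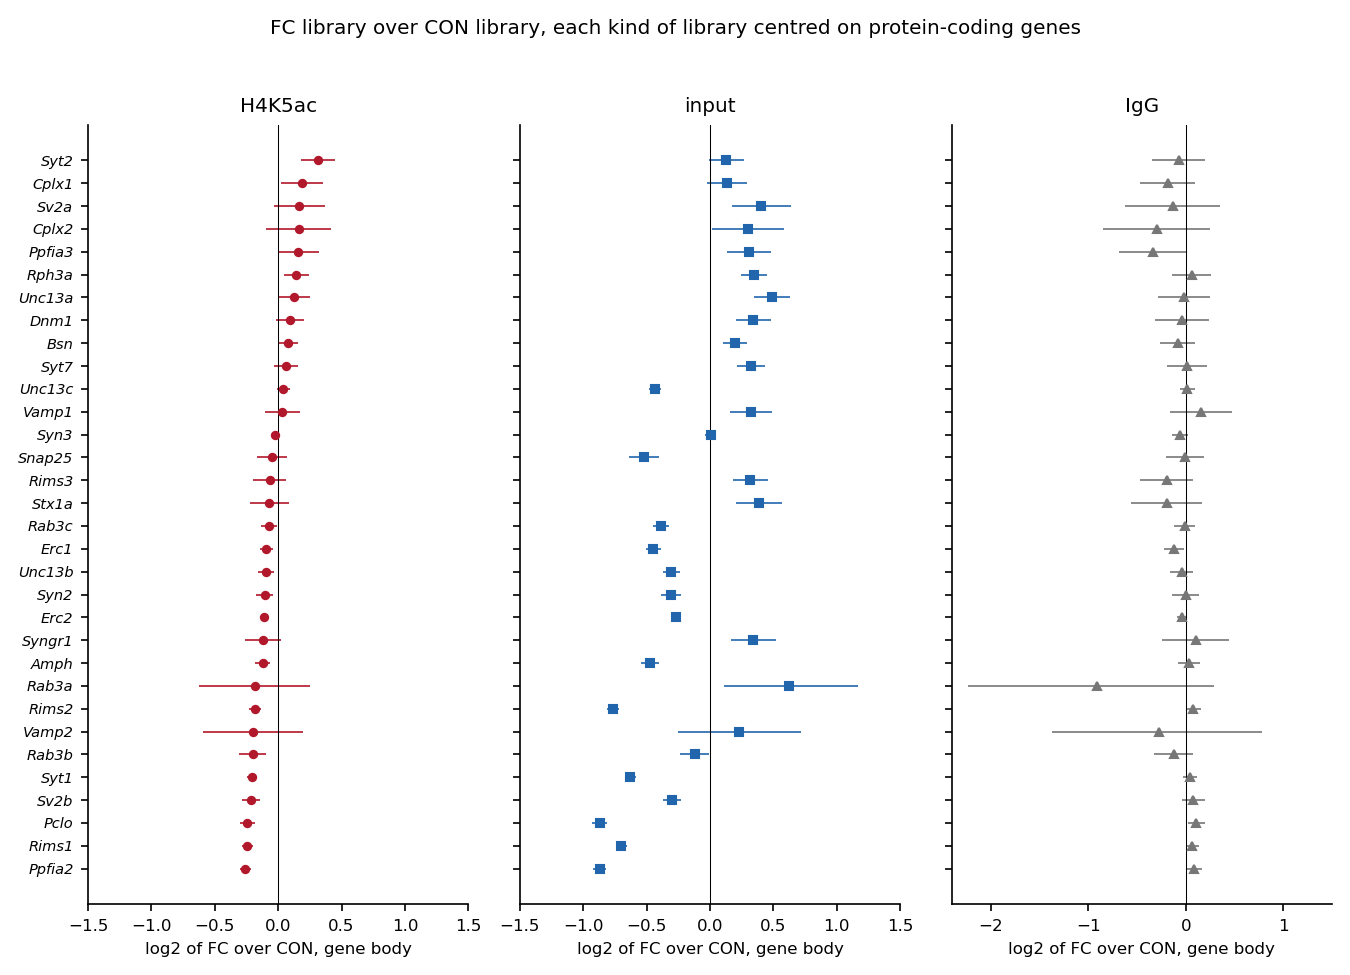
Log2 of the FC library over the CON library for H4K5ac (left), input (middle) and IgG (right) over the gene body of each member, each kind of library centred on the median of protein-coding genes, with exact 95% counting intervals as bars; members are sorted by H4K5ac and the IgG axis is wider. H4K5ac spans -0.26 (Ppfia2) to 0.31 (Syt2), a narrower span than that of input, in which the same long genes are lowest.

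A further 50 genes of the presynaptic terminal were counted in the same way. Over IgG, 20 of 49 were called in FC and 13 of 50 in CON, against 31.1% and 23.2% of all genes, and over input 17 and 29 of 50, against 22.2% and 41.1%. Their medians over IgG were 0.91 and 0.80 and over input 0.40 and 0.64, close to those of the members. The highest were Napa (alpha-SNAP, which with NSF takes SNARE complexes apart), at 2.56 in FC and 1.68 in CON, and Tprgl, a vesicle-associated protein, at 2.00 and 1.51, where the FC value rests on under 10 IgG reads. The lowest were Slc17a6 (the vesicular glutamate transporter VGLUT2, used mainly by subcortical neurons), at -1.11 and -1.08, and Cadps2, a vesicle priming protein, at -0.70 and -0.50. Of FC over CON, 5 of the 50 were at least 1.2-fold higher and none lower, against 10.4% and 7.05%. Postsynaptic scaffold genes were called over IgG in 8 of 20 (FC) and 7 of 20 (CON), and 13 paralogs of the members, most of them known mainly from outside central synapses, in 7 and 3, against the same 31.1% and 23.2%.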

How the data were processed

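Per the labels and the study's methods, sonicated chromatin was sequenced as 50-bp SOLiD reads and aligned to mm9 with Bioscope. The authors deposited the aligned reads in BED format, 1 per line, with a score, the mapping quality of the read (4 to 100 in the deposited files). Aligned lengths were 25 to 50 bp and 11.5% to 17.8% of reads repeated a position and strand.

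Reads overlapping a gene body or promoter by at least 1 bp were counted in each library, scaled to all its reads, and compared as log2 ratios with exact intervals (Python 3.11.15, NumPy 2.4.6, SciPy 1.17.1, pandas 2.3.3, matplotlib 3.10.9). Ratios with under 10 control reads, or under 50 reads in FC and CON together, were left out of counts. The procedure was tested on simulated counts.

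The members, lists and comparisons were chosen with earlier results of these data known. Values in all 6 libraries were given for Syt1, Snap25, Vamp2, Bsn, Rims1, Unc13a, Cplx2, Rab3a, Syn2, Sv2a and Dnm1 and for the 3 highest and 3 lowest members by mean gene body over IgG, mean promoter over input, and FC over CON, and of the other presynaptic genes the 2 highest and 2 lowest were named. The windows, tiles and later starts were looked at after the first values were seen. Alternatives changed read filters, scaling, region limits, folds and centring.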

Additional observations from a re-analysis of the deposited data

Results flagged for a closer look

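The Sv2b promoter was singled out because FC and CON lay on opposite sides of input. H4K5ac over input stood at -0.79 (-1.57 to -0.05) in FC and 0.98 (0.04 to 1.98) in CON, on 22 and 30 H4K5ac reads and 55 and 15 input reads. Between the groups, the input reads differed by more than the H4K5ac reads. With 1 library per group the difference in the ratio was not tested. Over IgG both intervals included 0, at -0.91 (-1.86 to 0.06) and -0.68 (-1.52 to 0.19).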

How the results depend on the processing

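Of 92 counts and profile values, 71 kept within 1.5 times or the counting interval and 21 moved. The share of all genes called under the same setting stands in parentheses. With 1 read per position, FC calls over IgG in the gene body were 10 (26.6%). With a fold of 1.5, CON calls over IgG were 21 (50.2%), and with the lower planned fold, FC calls over input were 18 (40.9%). At promoters over IgG, FC calls were 5 of 17 at a score of at least 20 (26.9%), 19 with no read minimum (48.1%), 16 for 5 kb (35.3%) and 17 of 30 for 2 kb on each side of the start (48.6%). CON calls there were 4 of 19 at that score (29.3%), 15 with no minimum (41.6%) and 15 of 30 for both sides (40.6%). CON promoter calls over input were 11 for 5 kb (43.0%). For FC over CON, 1 member was lower with 1 read per position (5.69%), 3 at a score of at least 20 (7.58%) and 1 with no minimum (11.1%). Less the difference in input, 10 were higher (25.5%) and 9 lower (21.3%), less that in IgG, 5 (17.6%) and 4 (14.8%), and centred on genes of like GC content, 0 (8.61%) and 2 (6.25%). The FC profile ratio was 0.26 when divided by input. Of 2127 values of members, 1958 stayed the same, 168 moved and 1 reversed (FC promoter H4K5ac over IgG, Pclo), to -0.0197 for 5 kb. The cause was not tested. No paired analysis was possible because each group had 1 library per antibody, and no replicate could be left out.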
